A study of Arabidopsis thaliana with 12 samples.

Results

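The serine carboxypeptidase-like (SCPL) genes of Arabidopsis thaliana were followed in seedlings exposed to a respiratory inhibitor, a synthetic auxin or both. The members were all probe sets that the annotation of the Affymetrix ATH1 array pairs with exactly 1 gene whose symbol is SCPL, in upper or lower case, followed by a number. This gave 29 probe sets of 29 genes among 22746 probe sets tested, and all 29 had a locus in the RefSeq gene table, which lists 49 such symbols in all. By family number, 2 members lie between 1 and 19, 26 between 20 and 49, and 1 is scpl50. The other genes of the family, among them SNG1 and BRS1 under their own symbols, were not analysed here.

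All 4 groups were labelled as the line Col:LUC, ecotype Col-0. The labels do not say what LUC reports, and their growth protocol also names seeds of Attim17-1, a line that no sample label carries. They spent 10 days on B5, a plant culture medium, and 3 more days on fresh B5 either plain or with 4.5 µM of the synthetic auxin NAA. Part of them then received 50 µM antimycin A for 3 hours, a compound that blocks respiratory electron transport in mitochondria at complex III. The groups were B5, B5 with antimycin A, NAA, and NAA with antimycin A, each with 3 arrays of whole seedlings described as biological triplicates. The labels do not say whether the seedlings without antimycin A were mock-treated with its solvent, so effects of solvent and inhibitor cannot be told apart.

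SCPL proteins share the alpha/beta hydrolase fold and the serine, aspartate and histidine triad of serine carboxypeptidases, which remove single amino acids from the carboxyl end of proteins. Most carry a signal peptide and are destined for the vacuole or the cell wall. Part of the family works as acyltransferases instead: SNG1 and SNG2 move the sinapoyl group of sinapoylglucose to malate and choline, and the members numbered 1 to 19 are their relatives. The members numbered 20 to 49 are more like true carboxypeptidases, with BRS1, a secreted enzyme of brassinosteroid signalling, among their relatives. SCPL49 carries the synonym carboxypeptidase Y in RefSeq, after the vacuolar protease of yeast. For the other members described below no substrate is stated, since none is certain enough.

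Over the 12 arrays the median intensity lay between 33.7 and 39.7, and replicate arrays correlated at 0.99 or above over probe sets. The number of arrays limits the precision. The known antimycin A marker UPOX (AT2G21640) read 41.7 to 87.2 without and 2166 to 3984 with the inhibitor, and the auxin-induced GH3.3 read 11.0 to 25.6 on plain B5 and 2840 to 3281 on NAA. GH3.3 also read 1071 to 1603 on B5 with antimycin A and 6042 to 8034 on NAA with antimycin A, so it moved with both treatments and is no check of the NAA label alone. The log2 ratio of the 3' to the 5' control probe set of GAPDH, a gauge of RNA integrity, was 4.73 to 5.61 on 3 arrays (replicate 2 of B5 with antimycin A, of NAA and of NAA with antimycin A) and at most 4.11 on the other 9. On every array the GAPDH ratio was at least 3.21. The same ratio of actin was 7.46 to 8.79 over the 12 arrays. It was highest on replicate 2 of B5 with antimycin A (8.79) and next highest on replicate 2 of NAA (8.42). Replicate 2 of NAA with antimycin A stood at 8.25 for actin, below replicate 1 of NAA at 8.31. Calls of members lost or gained without the 3 arrays of high GAPDH ratio are given with each comparison.

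A member is described as dim when its highest value on the 12 arrays was below 32. This held for 14 of the 29 members, whose values lay between 3.56 and 16.3 on all arrays. They were both members numbered below 20 (scpl16 and scpl18), together with scpl21, scpl22, scpl23, scpl30, SCPL32, scpl33, scpl38, scpl40, scpl41, SCPL43, scpl44 and scpl47. The table holds no detection call, so whether these transcripts were present is unknown, and a fall could not be seen in them. The other 15 members (51.7%, against 59.4% of all probe sets) reached at least 32 on some array, and every result below concerns these, apart from scpl16.

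**Figure D1:**
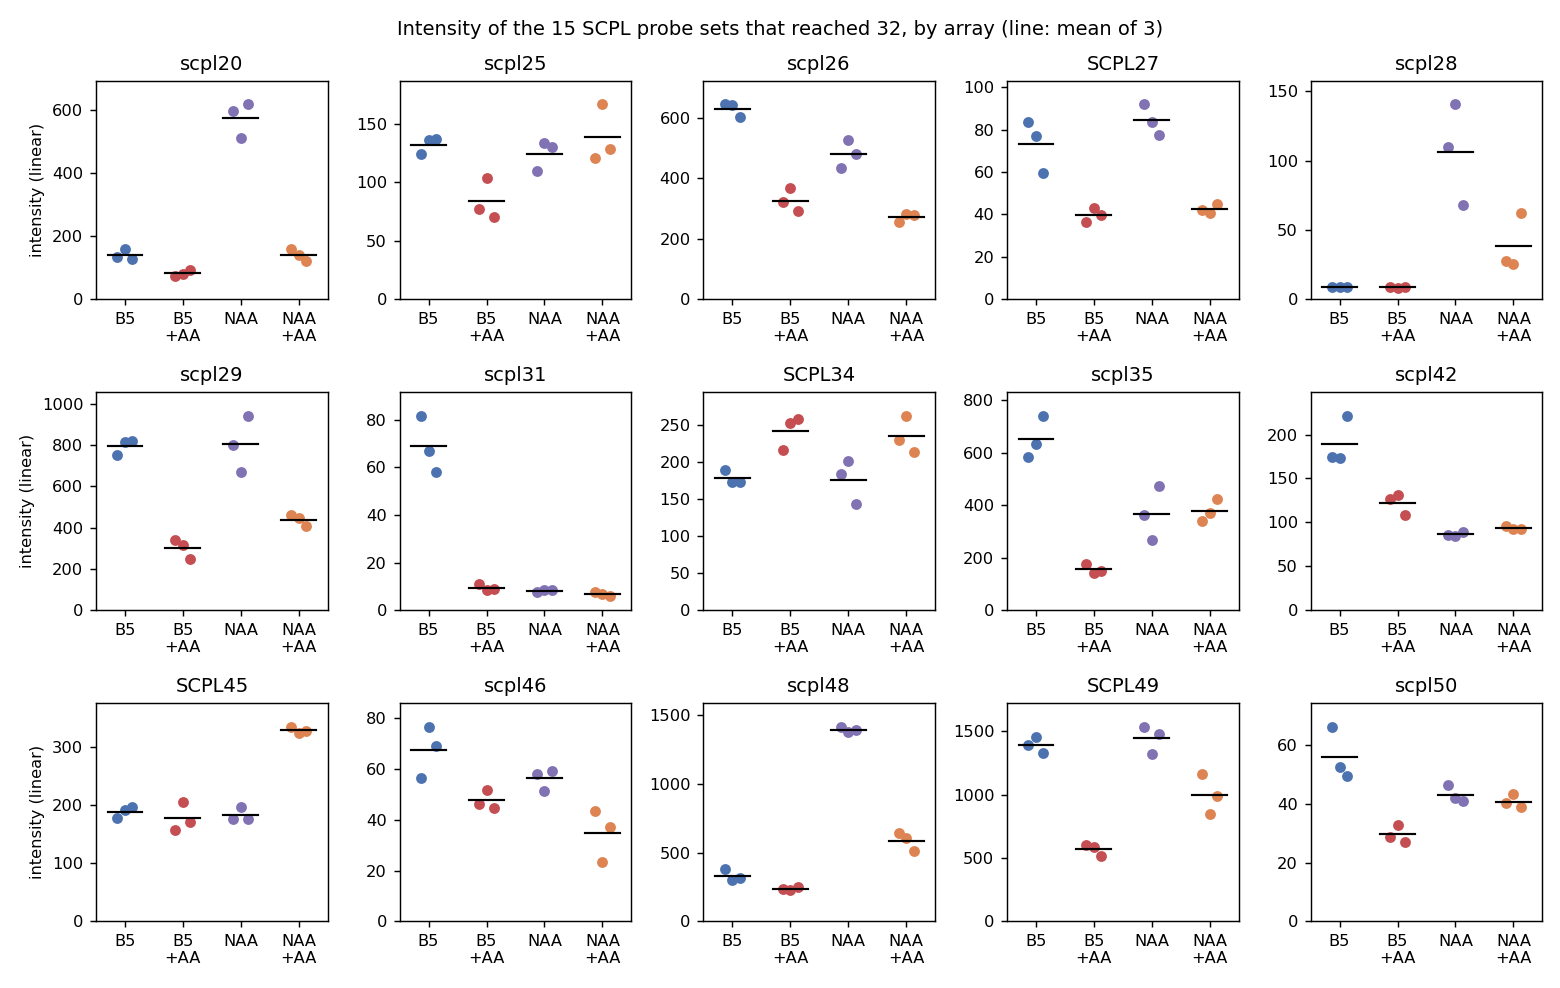
Intensity on each of the 12 arrays (points, linear axis from 0, own scale per panel) for the 15 SCPL probe sets that reached 32, with the mean of 3 arrays as a line. B5 is the plain medium, NAA the auxin medium and +AA marks antimycin A. The panel of scpl31 shows 3 arrays on B5 at 58.1 to 81.7 and the other 9 at 10.8 or less, and that of scpl48 shows NAA arrays at 1376 to 1417.

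The first comparison asked how the members differed between seedlings with and without antimycin A on plain B5. Antimycin A lowered most of the 15 members that reached 32 on some array. Of these, scpl31 reached 32 only on B5 without antimycin A. The gene scpl28 reached it only on arrays with NAA, so a fall of scpl28 on B5 could not be seen. Falls of over 1 on the fitted log2 scale were those of scpl35, scpl31, scpl29 and SCPL49, the carboxypeptidase Y gene. SCPL34 rose slightly. A call means an adjusted p below 0.05 in the linear model of limma, with Benjamini-Hochberg adjustment over all 22746 probe sets, and differences are on the scale of log2(intensity + 16), which understates changes at low intensity. Differences of members read at low intensity therefore depend on the added value. Of the 29 members 13 were called (44.8%, against 33% of all probe sets), 11 of them lower (37.9%, against 18.7%) and 2 higher (6.9%, against 14.3%). Among the 15 members that reached 32, 11 were called lower and 1 higher. Among probe sets of the array that reached 32 the share called was 51.8%, with 29.3% lower and 22.4% higher.

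The gene scpl35 (AT5G08260, chromosome 5) read 585, 632 and 742 on B5 and 177, 142 and 149 on B5 with antimycin A. The groups lay far apart, with means of 653 ± 80.7 and 156 ± 18.4 (SD, n = 3), 4.18-fold lower with the inhibitor. The log2 difference was -1.96 ± 0.19 (SE), with a limma adjusted p of 4.8e-05. The gene scpl31 (AT1G11080, chromosome 1) read 81.7, 66.7 and 58.1 on B5 and 10.8, 8.58 and 8.97 with antimycin A. All 3 treated arrays thus lay within the range of the dim members, and the mean fell from 68.9 ± 11.95 to 9.46 ± 1.197 (SD, n = 3). Its log2 difference was -1.73 ± 0.09 (SE, limma adjusted p = 1.24e-06), and -2.73 or -0.85 with 1 or 64 in place of the added 16, called each time. No fold is given, since the treated level is not known to lie above background.

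Antimycin A also lowered scpl29 (AT4G30810, chromosome 4), which read 751, 814 and 818 on B5 and 339.7, 316 and 249 with the inhibitor. The arrays did not overlap, and the means of 794 ± 37.3 and 302 ± 47.2 (SD, n = 3) differed by a log2 value of -1.36 ± 0.14 (SE, limma adjusted p = 6.11e-05). SCPL49 (AT3G10410, chromosome 3) read 1391, 1452 and 1329 on B5 and 606, 588 and 514 with antimycin A. Its mean went from 1391 ± 61.6 to 569 ± 48.8 (SD, n = 3), 2.44-fold lower, a log2 difference of -1.27 ± 0.11 (SE, limma adjusted p = 2.84e-05). The fall was larger than the spread of either group.

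The other 7 members called lower on B5 had log2 differences between -0.45 and -0.93. They were scpl26 (-0.93), SCPL27 (-0.67), scpl20 (-0.67), scpl50 (-0.65), scpl25 (-0.59), scpl42 (-0.57) and scpl48 (-0.45), and in each the 3 treated arrays lay below the 3 untreated ones. SCPL34 (AT5G23210) read 172.8 to 189.7 without and 217 to 258 with antimycin A, a log2 difference of 0.41 ± 0.12 (SE, limma adjusted p = 0.0261). Its call was lost when replicate 2 or 3 of B5 or of B5 with antimycin A was left out (adjusted p of 0.0757 to 0.0879), without the 3 arrays of high GAPDH ratio (0.0588) and with quantile normalization (0.0525). The dim scpl16 was called higher as well, at 8.99 to 9.34 without and 11.0 to 16.3 with antimycin A (log2 0.19), but this call was lost in 9 of 22 alternatives, among them leaving out any B5 array (adjusted p of 0.0767 to 0.0911), replicate 1 or 3 of NAA or replicate 1 of NAA with antimycin A (0.0506 to 0.052). Without replicate 3 of the treated group its value was 0.11. The arrays of SCPL45 overlapped, at 177 to 197 without and 157 to 205 with antimycin A, and the log2 difference was -0.09 (adjusted p = 0.496). Without replicate 2 of B5 with antimycin A SCPL45 was called lower (-0.19, adjusted p = 0.0479), as it was without the 3 arrays of high GAPDH ratio (0.0421). The gene scpl46 was not called (log2 -0.38, adjusted p = 0.0755), although 7 of 24 alternatives called it lower, among them leaving out those 3 arrays (-0.43, adjusted p = 0.0284).

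The 3 treated and the 3 untreated arrays on B5 did not overlap for 20 of the 29 members (69%, against 60.7% of all probe sets). Some dim members are among these 20, so the count describes the arrays and says little about the genes. In whole seedlings, fewer cells of a type and less RNA per cell cannot be told apart. A listed gene is called measured here when the annotation gives a probe set its symbol alone. The array may also read listed genes that were not matched in this way. Markers of shoot tissue moved in the same comparison: 3 of the 4 measured genes of a list of 5 shoot genes fell (18.7% of all probe sets did). The summed intensity of the 4 was 35440 to 35680 without and 19770 to 24460 with antimycin A. The 3 measured genes of a list of 9 root genes fell too, with sums of 6401 to 8202 and 2037 to 2695. In all 4 groups the root sums are mostly the root marker BGLU23 (means of 2354 to 6971). The root markers EXPA7 and EXPA18 averaged 4.99 and 15.9 on B5 with antimycin A, within the range of the dim members. The part of the shoot and root markers in the SCPL results was not tested. Listed seed and flower markers were not analysed here.

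The second comparison put the same question to seedlings that had spent 3 days on NAA. Here scpl20, scpl48 and scpl28 had the falls of largest size, and all 3 were also higher on NAA than on B5, a comparison that uses the same NAA arrays. SCPL45 rose. SCPL49 fell here too. Of the 29 members 10 were called (34.5%, against 24.8% of all probe sets), 8 lower (27.6%, against 13.2%) and 2 higher (6.9%, against 11.6%). All 10 called members are among the 15 that reached 32. Among probe sets that reached 32 the share called was 38.7%, with 20.4% lower and 18.3% higher.

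On NAA scpl20 (AT4G12910, chromosome 4) read 597, 510.2 and 617, and with antimycin A it read 159, 139 and 121. The arrays lay far apart, with means of 575 ± 57.1 and 139.6 ± 18.9 (SD, n = 3), 4.12-fold lower. The log2 difference was -1.93 ± 0.12 (SE, limma adjusted p = 5.54e-06). The gene scpl48 (AT3G45010, chromosome 3) read 1417, 1376 and 1391 on NAA and 640.0, 609.9 and 515 with antimycin A. Its mean went from 1395 ± 20.6 to 588 ± 65.5 (SD, n = 3), 2.37-fold lower, a log2 difference of -1.23 ± 0.09 (SE, limma adjusted p = 1.83e-05). Both genes with antimycin A stood at 1.70 and 2.47 times their level on B5 with antimycin A, and both were called higher there.

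The gene scpl28 (AT2G35770, chromosome 2) read 110, 141 and 68.3 on NAA and 27.5, 25.3 and 62.4 with antimycin A. The groups came close, since replicate 3 was the lowest of the first and the highest of the second. Means were 106 ± 36.3 and 38.4 ± 20.8 (SD, n = 3), with a log2 difference of -1.19 ± 0.26 (SE, limma adjusted p = 0.00959). The call was lost without the 3 arrays of high GAPDH ratio (-0.82, adjusted p = 0.126) and with the 6 arrays of the comparison alone (adjusted p = 0.0773). SCPL45 (AT1G28110, chromosome 1) read 177, 196 and 175 on NAA and 335, 324 and 328 with antimycin A. All treated arrays lay well above the others, with means of 183 ± 11.7 and 329 ± 5.44 (SD, n = 3), a log2 difference of 0.80 ± 0.08 (SE, limma adjusted p = 0.000128).

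Further falls on NAA were those of scpl29 (log2 -0.84), scpl26 (-0.78), SCPL27 (-0.77), SCPL49 (-0.54) and scpl46 (-0.53). SCPL49 read 1535, 1322 and 1479 on NAA and 1160.3, 846 and 986 with antimycin A, without overlap (limma adjusted p = 0.00643). The call of scpl46, at 51.3 to 59.4 without and 23.5 to 43.6 with antimycin A, was lost in 6 of 24 alternatives, among them leaving out replicate 1 or 3 of NAA (adjusted p = 0.0797 and 0.0748), leaving out the 3 arrays of high GAPDH ratio (0.0638) and the replicate block (0.0534). SCPL34 rose by a log2 value of 0.40 (adjusted p = 0.0393), and this call was lost in 11 of 24 alternatives, among them leaving out replicate 3 of NAA (0.27, adjusted p = 0.0946), replicate 2 of NAA with antimycin A (adjusted p = 0.13) and the 3 arrays of high GAPDH ratio (0.0799). Leaving out any of the 3 B5 arrays, replicate 2 of B5 with antimycin A, replicate 1 of NAA or replicate 1 of NAA with antimycin A also ended it, with adjusted p between 0.0513 and 0.0787.

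With antimycin A 6 of the 29 members were lower on both media (20.7%, against 8.97% of all probe sets): scpl20, scpl26, SCPL27, scpl29, scpl48 and SCPL49. No array is shared between these comparisons, although their errors come from a shared variance estimate. No member was called in opposite directions, and the share of all probe sets that were was not counted. The arrays with and without antimycin A did not overlap for 14 members (48.3%, against 36.1% of all probe sets). The shoot markers summed to 22900 to 23740 without and 8913 to 12100 with the inhibitor, and the root markers to 6050 to 7159 and 2881 to 3918. Their part in the results on NAA was not tested.

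**Figure D2:**
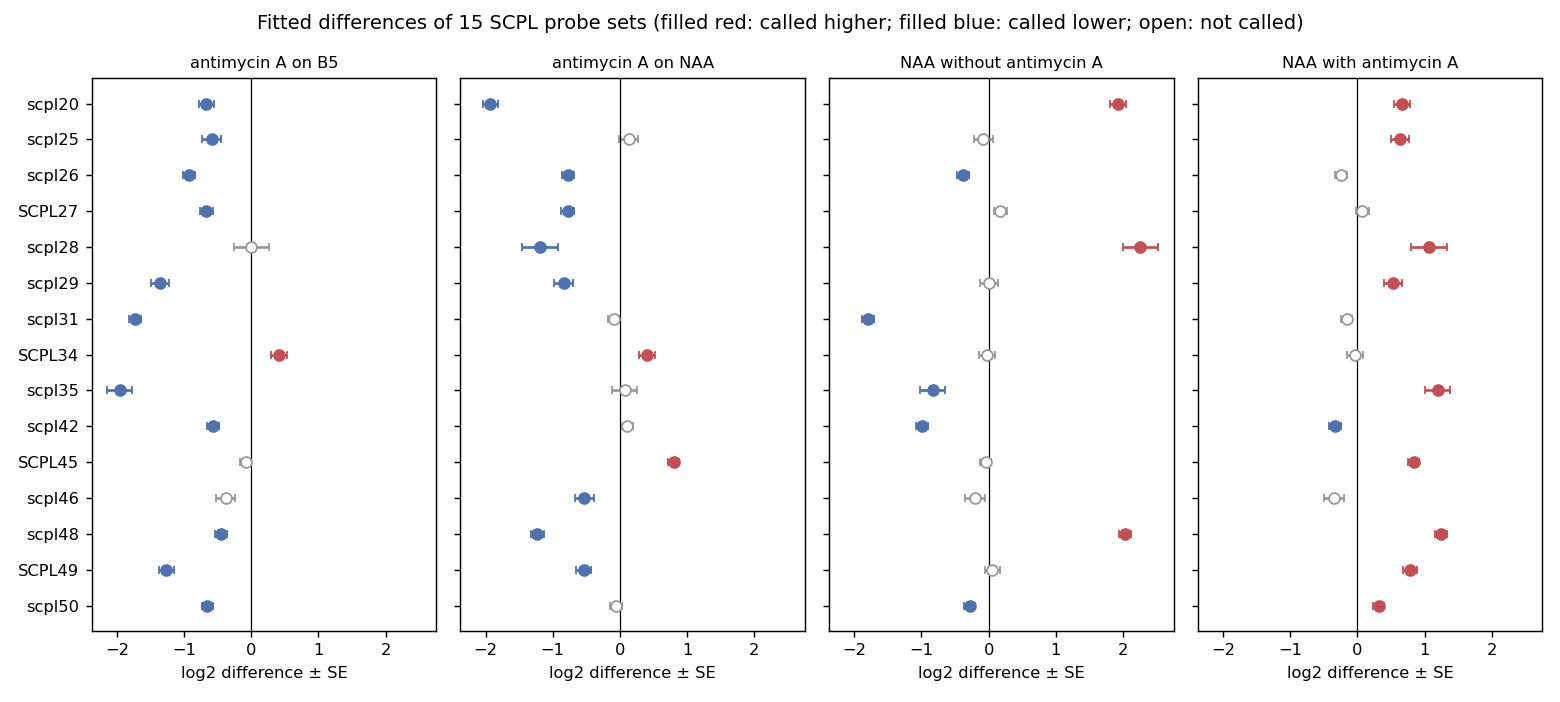
Fitted log2 differences (points, bars are SE, 12 arrays in 4 groups of 3) of the 15 SCPL probe sets that reached 32, in 4 comparisons. Filled points were called, red for higher and blue for lower, and open points were not. The antimycin A panels hold mainly blue points, while the panel of NAA with antimycin A holds 9 red points and 1 blue.

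Without the inhibitor, NAA and B5 seedlings were then set against each other. NAA raised 3 members and lowered 5. The rises were large: scpl28 rose from the range of the dim members, and scpl48 and scpl20 stood at 4.2 and 4.11 times their level on B5. The gene scpl31 fell into that range, and scpl42 fell too. Of the 29 members 8 were called (27.6%, against 20.4% of all probe sets), 3 higher (10.3%, against 10.7%) and 5 lower (17.2%, against 9.67%). All 8 called members are among the 15 that reached 32. Among probe sets that reached 32 the share called was 31.6%, with 16.5% higher and 15.1% lower.

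On B5 scpl28 read 8.85, 8.62 and 8.91, within the range of the dim members, and the NAA arrays given above read 68.3 to 141. The log2 difference was 2.26 ± 0.26 (SE, limma adjusted p = 0.000384), and 3.39 or 1.203 with 1 or 64 in place of the added 16, called each time. No fold is given against the dim B5 level. The gene scpl48 read 378, 301 and 317 on B5 against 1376 to 1417 on NAA, means of 332 ± 40.6 and 1395 ± 20.6 (SD, n = 3). No array overlapped, with a log2 difference of 2.03 ± 0.09 (SE, limma adjusted p = 2.43e-06). The gene scpl20 read 134, 160 and 126 on B5 against 510.2 to 617 on NAA, with a log2 difference of 1.92 ± 0.12 (SE, limma adjusted p = 1.23e-05).

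On NAA scpl31 read 7.77, 8.55 and 8.37, against 58.1 to 81.7 on B5. The mean of 8.23 ± 0.41 (SD, n = 3) again lay in the dim range, and the log2 difference was -1.80 ± 0.09 (SE, limma adjusted p = 3.28e-06), or -2.91 and -0.88 with 1 and 64 added. Its 2 falls, with antimycin A on B5 and with NAA, share the B5 arrays, and without replicate 1 of B5, the highest of them, neither call was lost. The gene scpl42 (AT5G42240, chromosome 5) read 175, 173 and 222 on B5 and 85.3, 84.9 and 89.3 on NAA. It was 2.19-fold lower, at a log2 difference of -0.998 ± 0.09 (SE, limma adjusted p = 8.83e-05).

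Smaller falls with NAA were those of scpl35 (log2 -0.83, adjusted p = 0.0124), scpl26 (-0.38, adjusted p = 0.0145) and scpl50 (-0.28, adjusted p = 0.0455). For scpl35 the NAA arrays read 364, 266 and 473, a wide spread below all B5 arrays. Its call was lost in 2 of 24 alternatives (adjusted p of up to 0.072). Leaving out the 3 arrays of high GAPDH ratio was 1 of them (-0.63, adjusted p = 0.0581). The call of scpl26 was lost without replicate 1 of NAA (adjusted p = 0.0541). That of scpl50 was lost in 16 of 24 alternatives, among them leaving out any of 10 arrays in turn (adjusted p of 0.0523 to 0.118), with -0.18 without replicate 1 of B5, and leaving out the 3 arrays of high GAPDH ratio (0.141). SCPL49 and scpl29, which antimycin A lowered, had log2 differences of 0.05 (95% interval -0.20 to 0.30) and 0.00 (-0.30 to 0.31) with NAA, and neither was called.

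The split of these calls depends on how the arrays are put on a common scale. Array medians were higher on NAA, and centring every array on its median moved the median difference of all probe sets from -0.01 to -0.10 without and from -0.01 to -0.13 with antimycin A. With centring, 3 members were called higher and 17 lower with NAA, but 12 of these 17 are dim members, and among the other 15 the counts stayed at 3 and 5. The groups did not overlap for 9 members (31%, against 39.3% of all probe sets). Of the shoot markers 3 of 4 fell with NAA (9.67% of all probe sets did). Of the root markers 2 of 3 rose (10.7% of all probe sets did), the root hair expansins EXPA7 and EXPA18. The root marker BGLU23 was not called (log2 -0.18). Shoot sums were 35440 to 35680 on B5 and 22900 to 23740 on NAA. Root sums were 6401 to 8202 on B5 and 6050 to 7159 on NAA. The part of these markers in the results with NAA was not tested. Leaving out replicate 1 of NAA brought the number of members called lower from 5 to 3, as did leaving out the 3 arrays of high GAPDH ratio.

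The fourth comparison asked what NAA changed among seedlings that all had antimycin A. Here 9 members were higher with NAA and 1 lower. The NAA-raised genes scpl48, scpl28 and scpl20 were higher again. SCPL45, SCPL49, scpl35, scpl29, scpl25 and scpl50 were higher as well, and of these only scpl35 and scpl50 had been called without antimycin A, both lower. These antimycin A arrays on B5 are those of the first comparison. Of the 29 members 10 were called (34.5%, against 22% of all probe sets), 9 higher (31%, against 12.2%) and 1 lower (3.45%, against 9.74%). All 10 called members are among the 15 that reached 32. Among probe sets that reached 32 the share called was 34.3%, with 19.2% higher and 15.1% lower. With each array centred on its median the counts were 8 higher and 18 lower, 14 of the latter dim.

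With antimycin A scpl48 read 234, 231 and 249.6 on B5, against 515 to 640.0 on NAA. Its log2 difference was 1.24 ± 0.09 (SE, limma adjusted p = 3.37e-05), and no array overlapped. On NAA with antimycin A scpl35 read 339.7, 372 and 422, against 142 to 177 on B5 with antimycin A. The mean of 378 ± 41.7 (SD, n = 3) was 2.42-fold higher, a log2 difference of 1.19 ± 0.19 (SE, limma adjusted p = 0.00182), whereas without the inhibitor NAA had lowered this gene. The gene scpl28 read 9.06, 8.38 and 9.05 on B5 with antimycin A against 25.3 to 62.4 on NAA (log2 1.07 ± 0.26 SE, limma adjusted p = 0.0186). That call was lost with a pseudocount of 64 (0.47, adjusted p = 0.0805), with the 6 arrays of the comparison alone (0.059) and without replicate 2 of B5 with antimycin A (0.0509).

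SCPL45 read 157, 205 and 171 on B5 with antimycin A and 324 to 335 on NAA with antimycin A, a log2 difference of 0.84 ± 0.08 (SE, limma adjusted p = 0.000163). SCPL49 differed by 0.78, scpl20 by 0.66, scpl25 by 0.63, scpl29 by 0.53 and scpl50 by 0.32, each without overlap of the arrays. The call of scpl25 was lost with the 6 arrays of the comparison alone (adjusted p = 0.0721). That of scpl29 was lost in 5 of 24 alternatives. Among them were leaving out replicate 3 of B5 with antimycin A or replicate 1 or 2 of NAA with antimycin A (adjusted p of 0.0624 to 0.0676). Leaving out the 3 arrays of high GAPDH ratio (0.0686) ended it too. The call of scpl50 was lost in 8 of 24 alternatives. Among them were leaving out replicate 1 or 3 of B5 with antimycin A or replicate 1 or 2 of NAA with antimycin A (0.0589 to 0.0871). Leaving out the 3 arrays of high GAPDH ratio (0.0997) and quantile normalization (0.20, adjusted p = 0.111) ended it too.

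The 1 member lower with NAA was scpl42 (log2 -0.33, adjusted p = 0.0282). This call was lost in 8 of 24 alternatives. Among them were leaving out replicate 1 or 2 of B5 with antimycin A, or any array of NAA with antimycin A (adjusted p of 0.0576 to 0.0916). The replicate block (0.058) and leaving out the 3 arrays of high GAPDH ratio (0.201) ended it too. Beside the count of 1, leaving out replicate 3 of B5 with antimycin A gave 3, and any array of NAA with antimycin A gave 0. Arrays did not overlap for 17 members (58.6%, against 40.7%). Here 3 of 4 shoot markers were lower (9.74% of all probe sets) and 2 of 3 root markers higher (12.2%) with NAA. The root markers called were EXPA18, with means of 15.9 on B5 and 43.5 on NAA, and BGLU23 (2354 and 3404). EXPA7 was not called, with means of 4.99 and 8.20 in the dim range. Shoot sums were 19770 to 24460 on B5 and 8913 to 12100 on NAA. Root sums were 2037 to 2695 on B5 and 2881 to 3918 on NAA.

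The last comparison tested whether the antimycin A effect differed between the media, as the effect on NAA minus that on B5. It did for 8 of the 29 members (27.6%, against 9.53% of all probe sets). In 6 of them the value was positive (20.7%, against 5.14%), and in scpl20 and scpl48 it was negative (6.9%, against 4.39%). All 8 called members are among the 15 that reached 32. Among probe sets that reached 32 the share called was 14.7%, with 7.88% positive and 6.86% negative. The positive group holds scpl35, scpl31, SCPL45, SCPL49, scpl42 and scpl50.

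The gene scpl35 differed by 2.02 ± 0.26 (SE, limma adjusted p = 0.00228). It fell on B5 with antimycin A, and on NAA its log2 effect was 0.07 (95% interval -0.35 to 0.49), with arrays of 266 to 473 and 339.7 to 422 that overlap. For scpl31 the difference was 1.64 ± 0.12 (limma adjusted p = 0.000179), or 2.48 and 0.82 with 1 and 64 added, so its place beside scpl35 depends on the added value. Its NAA arrays read 5.84 to 8.55 with or without the inhibitor, in the range of dim members, where a further fall could not be read. SCPL45 differed by 0.88 ± 0.12 (limma adjusted p = 0.0026), with a rise on NAA and overlapping arrays on B5 (log2 -0.09, 95% interval -0.27 to 0.10).

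SCPL49 differed by 0.73 ± 0.16 (SE, limma adjusted p = 0.0208), as it fell on both media but less on NAA. Without replicate 2 of B5 this was 0.70 with an adjusted p of 0.0519. For scpl42 the value was 0.67 and for scpl50 it was 0.60 (adjusted p = 0.0125 and 0.0157), and both were called lower on B5 and not on NAA. In scpl20 the fall was larger on NAA than on B5, by -1.26 ± 0.17 (SE, limma adjusted p = 0.00244), and in scpl48 by -0.78 ± 0.13 (limma adjusted p = 0.00718). Leaving out the 3 arrays of high GAPDH ratio ended the calls of scpl48 (adjusted p = 0.0621), scpl42 (0.0781) and scpl50 (0.0866), with values of -0.84, 0.71 and 0.60.

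For the remaining members the difference was not called, which does not show equal effects. The 95% interval ran from -0.40 to 0.37 for SCPL34, from -0.41 to 0.21 for SCPL27 and from -0.14 to 0.43 for scpl26. It was wide for scpl28 (-2.04 to -0.34, adjusted p = 0.0851), which read 8.38 to 9.06 on all B5 arrays with or without the inhibitor. For scpl25 it ran from 0.27 to 1.17 (adjusted p = 0.056), and 9 of 23 alternatives called it, among them leaving out the 3 arrays of high GAPDH ratio (0.78, adjusted p = 0.0225).

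**Figure D3:**
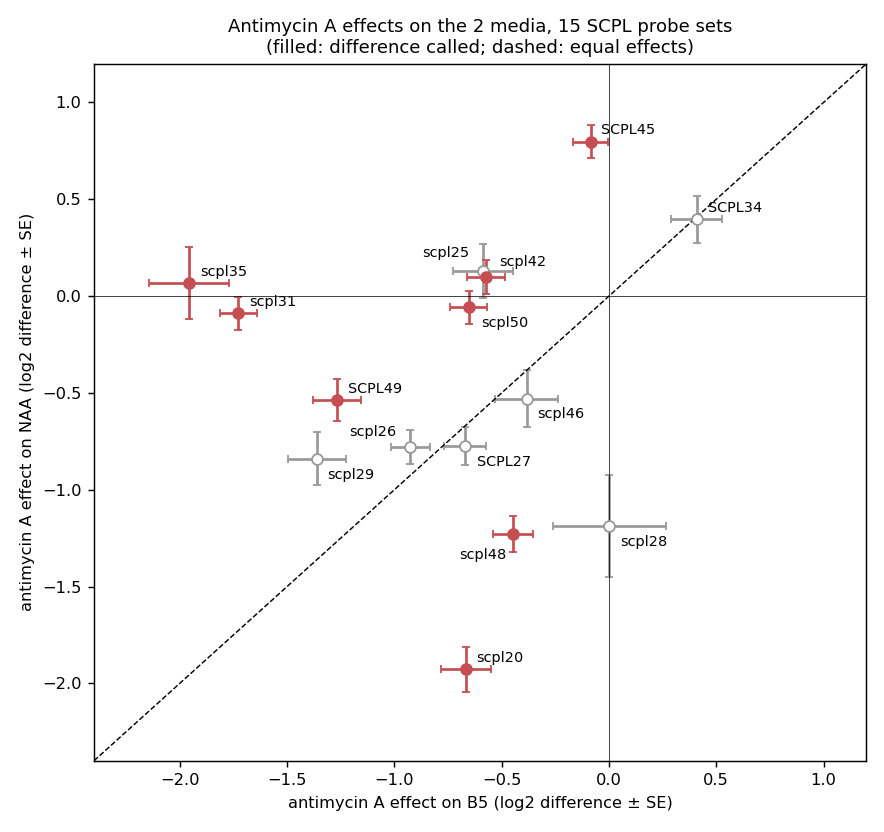
Antimycin A effect on NAA (vertical) against that on B5 (horizontal) for the 15 SCPL probe sets that reached 32, as log2 differences with SE bars. Filled points are the 8 members whose effects differed by the test of the difference, and the dashed line marks equal effects. The 2 filled points below the line are scpl20 and scpl48, and the 6 above it include scpl35 at -1.96 on B5 and 0.07 on NAA.

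Neighbouring genes of the family did not share a pattern in every case. In the RefSeq gene order scpl28 and scpl26 lie next to each other on chromosome 2 with no other protein-coding gene between them. NAA raised scpl28 from the dim range while it lowered scpl26, which read 644, 642 and 603 on B5 and 433, 527 and 480 on NAA. On NAA antimycin A lowered both, scpl26 to 256, 282 and 279. The pair scpl22 and scpl23, also adjacent on chromosome 2, was dim, with no array above 6.28. On chromosome 5 scpl41 and scpl42 have 2 protein-coding genes between them, and scpl41 was dim at 4.82 to 5.70 while scpl42 was read at 84.9 to 222.

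Because of its synonym, SCPL49 was set beside a list of 14 vacuolar protease genes. Of these, 8 were measured, meaning matched to a probe set that the annotation gives 1 symbol. Whether the array reads the others was not examined. Where the SCPL49 protein lies and what it cuts were not tested. Of the 8, VPEdelta (at most 4.80 on any array) and VPEalpha (at most 21.2) were dim. With antimycin A on B5, 5 of the 8 fell (18.7% of all probe sets did) and 0 rose (14.3%). The median log2 difference was -1.10 (all probe sets 0.01). The cathepsin B-like protease CATHB2 fell by 1.24 on the log2 scale, and the aspartic protease APA1 by 1.19, from 3581 ± 147 to 1569 ± 192 (SD, n = 3). On NAA 4 of the 8 fell (median -0.60), against 13.2% of all probe sets, CATHB2 by 0.61 and APA1 by 0.62. The dim VPEalpha is 1 of these 4. With NAA 2 rose without antimycin A (10.7% of all probe sets did), 1 of them the dim VPEalpha. With antimycin A 4 rose (12.2% of all probe sets), led by CATHB3 and the vacuolar processing enzyme VPEbeta (both 1.19). The test of the difference between media called CATHB2 (0.63, adjusted p = 0.0179) and none of the other 7 measured.

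**Figure D4:**
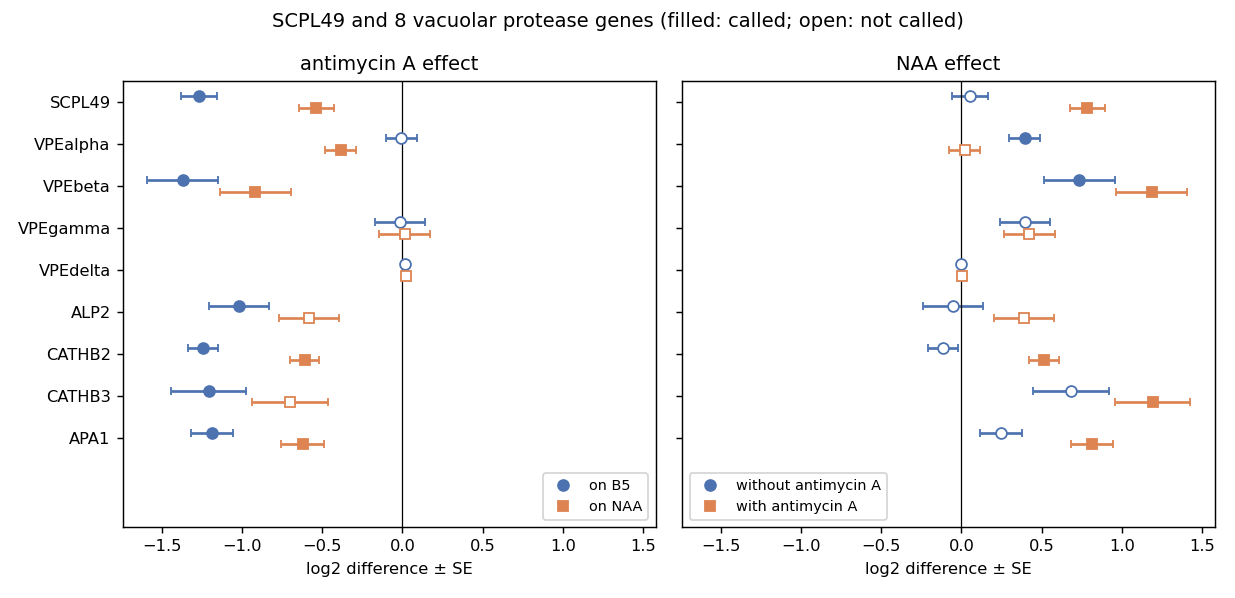
Fitted log2 differences with SE bars for SCPL49 and the 8 measured vacuolar protease genes. The left panel shows antimycin A effects on B5 (circles) and on NAA (squares), and the right panel NAA effects without (circles) and with antimycin A (squares), with filled symbols for calls. SCPL49, VPEbeta, CATHB2 and APA1 have filled symbols left of 0 on both media.

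Genes that make the substrates of SCPL acyltransferases were read through 5 of 19 listed sinapate ester and phenylpropanoid genes. The other listed genes were not matched to a probe set with 1 symbol. Of these UGT84A1 was dim (at most 6.16). The shares of all probe sets called, given with each comparison above, apply to the counts here too. On B5 antimycin A raised 1, ALDH2C4, an aldehyde dehydrogenase that forms sinapate (log2 0.87), and lowered HCT, an acyltransferase of the phenylpropanoid pathway (-0.40), and UGT84A4 (-0.45), which forms glucose esters of hydroxycinnamates. On NAA 1 fell, UGT84A4 (-1.15). With NAA ALDH2C4 (0.38) and UGT84A4 (1.32) rose without antimycin A, and UGT84A4 (0.62) with it. The antimycin A effects on the media differed for ALDH2C4 (-0.63, adjusted p = 0.0196) and UGT84A4 (-0.70, adjusted p = 0.0467). Of 10 listed anthocyanin genes, whose products SCPL acyltransferases can decorate with sinapate, 4 were measured, 5MAT among them dim (at most 15.4). With antimycin A 3 of the 4 fell on each medium, against 18.7% of all probe sets on B5 and 13.2% on NAA. DFR, dihydroflavonol reductase, fell by 2.67 on B5 and 3.56 on NAA, and 0 of the 4 were called with NAA. The SCPL members numbered 1 to 19 were dim, so these lists cannot be set beside a measured acyltransferase.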

How the data were processed

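Linear intensity values of 12 arrays were read from the authors' deposited table, each column matched to its sample. MAS5, RMA and Partek stand in the submitters' processing notes, where neither their roles nor versions appear, so the between-array normalization is unknown. The 64 control probe sets among 22810 were dropped. Genes came from the array annotation and RefSeq (TAIR10.1, names and gene order only). No sequences or coordinates were used.

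With limma 3.58.1 in R 4.3.3, a mean per group was fitted to log2(value + 16) on all 12 arrays (8 residual degrees of freedom, empirical Bayes, two-sided tests, Benjamini-Hochberg over 22746 probe sets, threshold 0.05). SD refers to the intensities of a group's 3 arrays, SE to the model. List genes were matched only to the 13513 probe sets that the annotation gives exactly 1 gene symbol. A list gene with several such probe sets took the brightest. The script was tested on simulated data.

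Alternatives were scaling, pseudocounts of 1 and 64, filters at 32, variance models, array weights, 6-array fits, a replicate block and leaving out arrays. Leaving out the 3 arrays of high GAPDH ratio was chosen after seeing the data. Members called with a log2 difference of 1 or more were described in full, other called members briefly, the rest by range. Members and lists were chosen with earlier results of these data known.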

Additional observations from a re-analysis of the deposited data

Results flagged for a closer look

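The antimycin A effect differed between the media in 8 SCPL members by the test of the difference itself (limma, adjusted p below 0.05 over all probe sets). The log2 value on NAA minus that on B5 was 2.02 for scpl35, 1.64 for scpl31 (0.82 to 2.48 with other pseudocounts), 0.88 for SCPL45, 0.73 for SCPL49, 0.67 for scpl42 and 0.60 for scpl50. It was -1.26 for scpl20 and -0.78 for scpl48. For scpl31 only the B5 mean lay above the range of the dim members, whereas for the other 7 all 4 group means did.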

How the results depend on the processing

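Of 49 called member results, 32 kept their call in every alternative (24 at most), 17 lost it in at least 1 and 0 reversed. Of 27 results not called among the 15 members that reached 32, 7 were called in at least 1 alternative. Median centring also called dim members lower (12 with NAA, 14 with NAA and antimycin A). In the latter comparison array weights called 2 dim members lower. A pseudocount of 1, an intensity trend and leaving out any array of B5 with antimycin A each called 1 lower there. For antimycin A on NAA, quantile normalization called 1 dim member higher. Leaving out replicate 1 of B5 called 1 lower. A pseudocount of 64 moved called differences of scpl16, SCPL27, scpl28, scpl31, scpl46 and scpl50 by over 1.5 times. The members called higher with antimycin A on B5 numbered 2, but 0 with quantile normalization and 1 with either filter on dim probe sets (scpl16 is not tested there), with the 6 arrays of the comparison, with the replicate block and without the 3 arrays of high GAPDH ratio. Leaving out 1 array gave 0 to 2. On NAA the 2 called higher became 1 with 6 arrays and 1 without the 3 arrays, and 1 to 2 leaving out 1 array. The 5 called lower with NAA became 17 with median centring, 3 with the filter on the mean (scpl31 is not tested there and scpl50 lost its call), 3 with 6 arrays and 3 without the 3 arrays, and 3 to 5 leaving out 1 array. With antimycin A, the 1 called lower with NAA became 18 with median centring, 3 with a pseudocount of 1, 2 with an intensity trend, 3 with array weights, 0 with the replicate block and 0 without the 3 arrays, and 0 to 3 leaving out 1 array. For the difference of effects, the 2 called lower became 1 without the 3 arrays, and 2 to 3 leaving out 1 array. Median centring shifts all probe sets of the NAA arrays down relative to those of B5, dim or not. Why the calls of dim members and the other counts changed was not tested. The replicate block ended 3 calls (scpl16 and scpl42, adjusted p = 0.0587 and 0.058, and scpl46, 0.0534), gained 1 (scpl25) and changed no other. Same-numbered arrays of different groups correlated in their deviations from the group means at -0.10 to 0.35, above 0.1 in 5 of 18 pairs, against 3 of 36 pairs of different number. The labels do not say that a replicate number marks a shared batch, so the main fit held no replicate block. Whether same-numbered arrays share a batch was not tested. The 3 arrays of high GAPDH ratio, all numbered 2, correlated with each other at 0.26 to 0.35, so these 3 share a deviation that was not assigned to a batch. The difference of effects has no 6-array fit. No detection call was given, so how far background limits low values is unknown.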

Other observations

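The annotation pairs 2 further probe sets with an SCPL gene and another gene, so they name no single gene. The probe set of scpl37 and scpl36 read 3.86 to 4.39 and that of AT3G56540 and scpl39 read 6.38 to 7.95 over the 12 arrays, both within the range of the 14 dim members.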
